A study of Homo sapiens with 24 samples.

Results

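The genes described here are 10 members of the S100 family of calcium-binding proteins: S100A2, S100A4, S100A6, S100A8, S100A9, S100A10, S100A11, S100A13, S100A14 and S100P. They were taken by name, with every probe set annotated to their symbol alone, which gave 12 probe sets of the 22215 on the array that are not controls and 10 genes of 11963. Of these, 9 genes and 11 probe sets passed the filter on dim signals and were tested. S100P did not pass, and every count below is of the 9 tested genes.

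S100 proteins are small calcium sensors built around EF-hand loops, and most of them work as dimers. On binding calcium they turn a greasy surface outward and grip target proteins, among them annexins, myosin, tropomyosin and p53. Several are also released from cells and bind receptors such as AGER (RAGE) and TLR4. Most of their genes lie together on the long arm of chromosome 1, inside a stretch that also holds genes of the skin's cornified layer. In the liver, S100A8 and S100A9 are best known from infiltrating myeloid cells, and S100A4 from fibroblasts and macrophages.

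All samples were HepaRG, a human hepatic progenitor line whose differentiated cultures mix cells resembling hepatocytes with cells resembling bile duct epithelium. The cultures grew for 2 weeks and then spent 2 weeks with DMSO. Hepatocyte-like cells were then lifted by mild trypsin and plated sparsely to set off reprogramming, and RNA was taken at 0 h and at 7 times from 1 h to 48 h, with 3 arrays at each time. The arrays at 0 h, labelled as HepaRG hepatocytes with no time of sparse plating, are the only reference. The labels do not say whether the 0 h cells were taken before or after detachment. No later sample was kept dense, so time, sparse plating and possibly detachment cannot be told apart, and all samples come from 1 cell line.

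Values are MAS5 signals, the linear brightness of a probe set on an array, given in the order of replicates 1, 2 and 3. Changes are differences of mean log2(signal + 18) with their standard error (SE), from a limma fit over 24 arrays. Calls required 2-fold or more together with an adjusted p under 0.05 (Benjamini-Hochberg over 9966 genes). Replicates carry numbers in the labels with no word on separate cultures. Each p-value therefore speaks of the scatter among these arrays, possibly a technical one. Because these are bulk samples, fewer cells of a type and less RNA per cell cannot be told apart.

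The arrays differed in RNA quality between times. The 3'/5' signal ratio of ACTB, which is higher in degraded RNA, lay between 2.03 and 6.91 at 0 h and between 1.02 and 1.27 at 48 h. The highest ratio belonged to 0 h replicate 2, which was also the lowest 0 h array for S100A4, S100A6, S100A9, S100A10, S100A11 and S100A14, that is 6 of the 9 tested genes. Without that array each call on an S100 gene was kept except that of S100A6 at 24 h. The part of RNA quality in the other results was not tested. The median change of all genes from 0 h was between -0.16 and -0.09 at the 7 later times, and changes are to be read against that shift. Of the 12 tested hepatocyte marker genes, 12 were called lower at 48 h (all genes 11.7%), and their summed signal was 513024 to 561027 per array at 0 h and 159513 to 176171 at 48 h. ALB, for serum albumin, had a mean of 69447 at 0 h and 32973 at 48 h, so the hepatocyte label had its markers at the start. The part of this loss in the S100 results was not tested.

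Of the 9 genes, 5 were called higher at 4 h, and S100A2, S100A4, S100A9 and S100A11 among them were still called higher at 48 h. S100A2 rose most, 215-fold at 16 h. S100A4 and S100A11 rose by more than 3 log2 units, S100A9 and S100A14 by more than 2, and S100A10 and S100A13 by more than 1. Without 0 h replicate 2 the rises at 16 h were 2.96 (S100A4), 3.27 (S100A11), 1.98 (S100A9) and 2.48 (S100A14). S100A8 went the other way at the end of the course, and S100A14 had lost most of its rise by 48 h. In the F-test over all 8 times, 8 of the 9 genes passed at an adjusted p under 0.05, against 58.9% of all genes. The exception was S100A6 (adjusted p = 0.109).

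At 1 h, 1 of the 9 genes was called higher, with 2.22% of all genes called higher and 0.602% lower. At 4 h there were 5 higher (all genes 7.6% higher, 7.1% lower). At 8 h there were 8 higher (all genes 8.41% higher, 10.1% lower). At 12 h 7 of the 9 genes were higher (all genes 8.72% higher, 10.6% lower), and at 16 h again 7 (all genes 9.19% higher, 11.9% lower). At 24 h there were 8 higher (all genes 10.4% higher, 11.2% lower), and at 48 h 6 were higher and 1 was lower (all genes 9.82% higher, 11.7% lower). No S100 gene was called lower by limma before 48 h, and 1, S100A8, had an unadjusted p under 0.05 in that direction (at 1 h, -0.72 ± 0.22, adjusted p = 0.0473, short of 2-fold). The 9 genes had a median change of 0.19 at 1 h, 1.87 at 4 h and 2.20 at 16 h. By 48 h it was 1.59. These genes were selected with results of these data known, so the counts describe them and do not test the family.

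**Figure D1:**
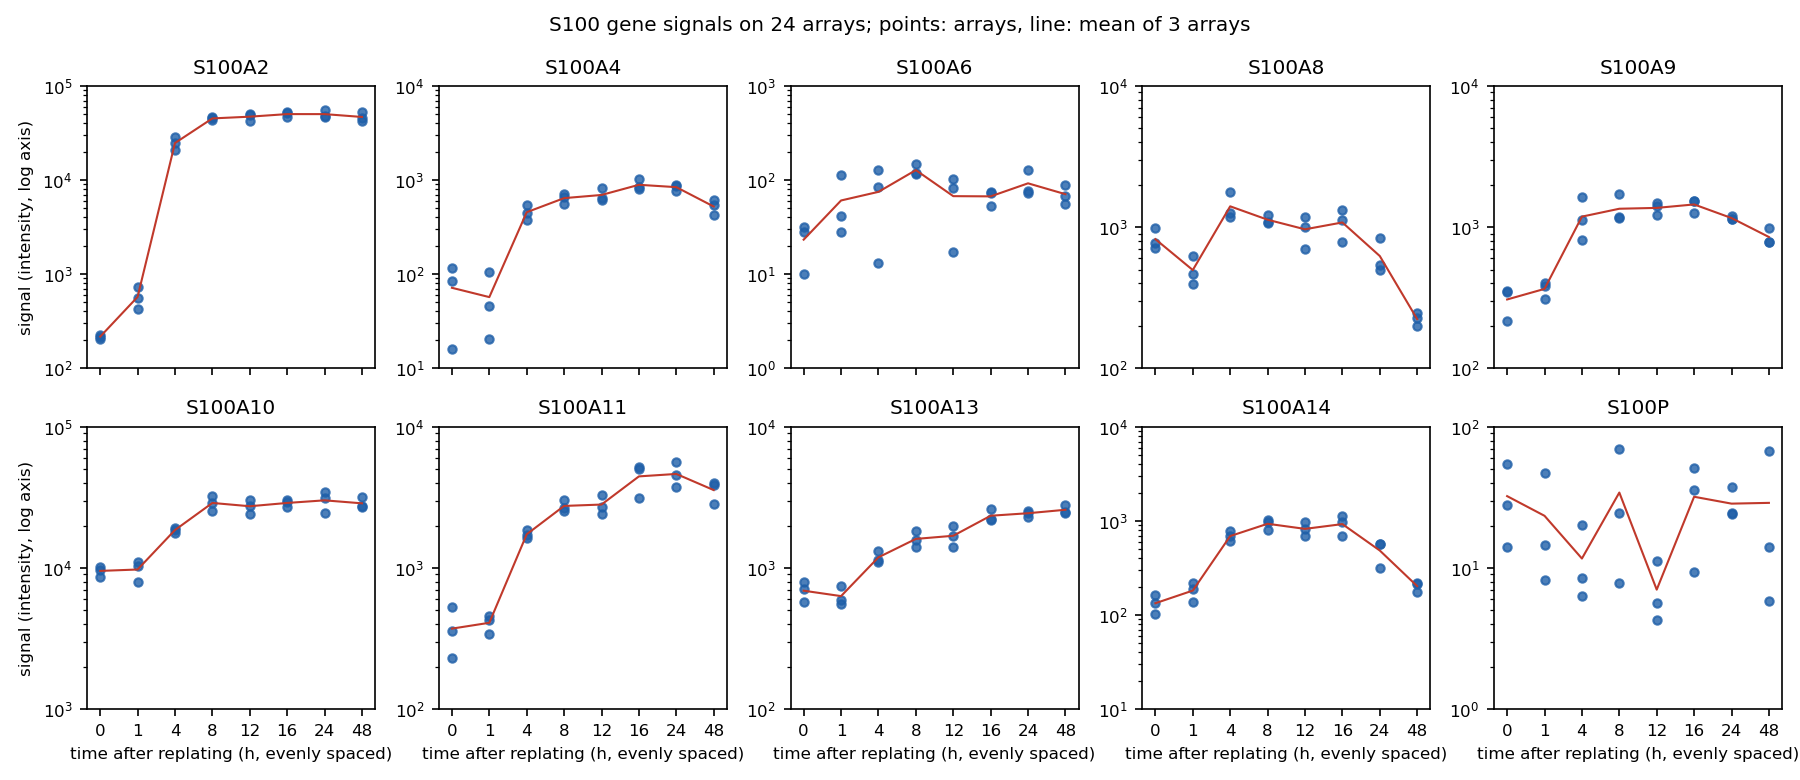
Signal of each S100 gene (log axis, own scale per panel) by time after replating in h, with points for the 3 arrays of a time and a line through their mean. S100A2 climbs from 206 to 226 at 0 h to 42503 to 56094 from 8 h on, S100A8 ends below its 0 h level, and S100P shows no steady level.

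S100A2 is a calcium sensor of epithelial cells, found largely in the nucleus, where it binds p53. Its signals at 0 h were 216, 226 and 206, and at 1 h 554, 735 and 426. At 4 h they were 21063, 28542 and 24623, and at 8 h 46924, 43496 and 45248. Each array at 1 h already lay above each array at 0 h, and each array at 4 h lay far above both. The later arrays were level with one another: 49962, 42886 and 48706 at 12 h, 46868, 52660.2 and 51257 at 16 h, 48285, 56094 and 46334 at 24 h and 45783, 42503 and 52291 at 48 h. The change from 0 h was 1.30 ± 0.14 at 1 h (SE, adjusted p = 3.61e-08), 6.71 ± 0.14 at 4 h and 7.75 ± 0.14 at 16 h. The step from 1 h to 4 h alone measured 5.41 ± 0.14. From 4 h to 8 h the signal grew by 0.88 ± 0.14 (adjusted p = 8.08e-05), which passed the p threshold but not 2-fold. No later step of S100A2 passed the p threshold, and arrays of neighbouring times overlapped from 8 h on. The range of its mean over the 8 times, 7.75 log2 units, was the largest of the 9966 genes tested. The brightest probe set of an array read between 49028 and 95567, so S100A2 came close to the top of the measured scale from 8 h on, and whether that ceiling flattened its later values was not tested.

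The promoter of S100A2 is shown because this gene moved most. That of S100A4 is shown because S100A4 lies nearby on the same strand, past S100A3, with a smaller rise and another motif. The windows are the 250 bases before the annotated start from RefSeq (GRCh38.p14), minus strand, written 5′ to 3′, at chr1:153565845-153566094 for S100A2 (the farther upstream of its annotated starts) and chr1:153545807-153546056 for S100A4. Capitals mark an AP-1 motif (TGANTCA, on either strand) in S100A2 and a TATA box (TATAAA) in S100A4.
S100A2: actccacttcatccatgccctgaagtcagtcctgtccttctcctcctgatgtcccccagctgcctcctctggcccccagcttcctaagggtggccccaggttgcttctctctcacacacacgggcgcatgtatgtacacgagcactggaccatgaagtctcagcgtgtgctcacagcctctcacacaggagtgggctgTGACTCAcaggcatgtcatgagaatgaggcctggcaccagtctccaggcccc
S100A4: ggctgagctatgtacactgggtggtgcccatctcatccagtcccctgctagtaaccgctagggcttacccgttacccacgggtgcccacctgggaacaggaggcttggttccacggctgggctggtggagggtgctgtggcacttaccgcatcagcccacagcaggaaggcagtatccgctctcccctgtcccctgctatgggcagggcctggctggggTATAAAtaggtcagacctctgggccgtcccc
The AP-1 letters lie 52 bases before the start of S100A2, and the TATA box 31 bases before that of S100A4. All 10 genes had at least 1 window in the table, and a gene was counted when any of its windows held the motif on either strand. The AP-1 motif was in 1 of the 10 genes, against 8.06% of 27305 genes. TATAAA was in 5 of 10 (S100A4, S100A8, S100A9, S100A13 and S100P), against 13%. The TEAD motif GGAATG was in 0 of 10 against 14.3%, and CCAAT in 2 of 10 (S100A8 and S100A13) against 37%. The motifs do not overlap one another in the windows printed here. S100A8 and S100A13 have 3 windows each, where the mean over all genes is 1.29. S100A2 has 2, and the one not printed holds none of these motifs. A match of letters is a description, and the arrays carry no measure of binding.

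S100A4, also called metastasin, binds non-muscle myosin and is a common marker of motile cells. It was dim and scattered at first, at 115, 16.0 and 83.7 at 0 h and 104, 45.9 and 20.6 at 1 h. By 4 h it read 375, 538 and 451, above each earlier array. It went on to 712, 653 and 561 at 8 h, 613, 643 and 825 at 12 h and 811, 835 and 1024 at 16 h. These levels then held at 886, 861 and 773 at 24 h and read lower at 541, 419.8 and 608 at 48 h, where the arrays lay below all those of 24 h. The change from 0 h was 2.60 ± 0.34 at 4 h, 3.55 ± 0.34 at 16 h and 2.79 ± 0.34 at 48 h (adjusted p = 2.94e-08). The drop from 24 h to 48 h, -0.68 ± 0.34, did not pass (adjusted p = 0.366). Without 0 h replicate 2 the changes of S100A4 from 0 h at 4, 16 and 48 h were 2.01, 2.96 and 2.20, all still called.

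S100A11, or calgizzarin, partners annexin A1 and is found in the nucleus and at membranes. Its 0 h signals were 526, 232 and 358, and those at 1 h, 457, 431 and 340.0, fell within that spread. At 4 h they were 1708, 1875 and 1621, at 8 h 2554, 2664 and 3050.5 and at 12 h 3296, 2725 and 2434. The highest arrays came later, with 3142, 5188 and 5059 at 16 h and 5633, 3747 and 4554 at 24 h, followed by 2853, 3858 and 3995 at 48 h. All arrays from 4 h on lay above all arrays of the earlier times. Relative to 0 h it had changed by 2.24 ± 0.21 at 4 h, 3.63 ± 0.21 at 24 h and 3.26 ± 0.21 at 48 h (adjusted p = 1.33e-14). The gain between 4 h and 48 h was 1.02 ± 0.21 (adjusted p = 0.000191), just over 2-fold. That call was lost with a larger pseudocount and without 4 h replicate 3, 48 h replicate 2 or 48 h replicate 3.

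S100A10 is the partner of annexin A2 at the cell surface and, unlike its relatives, does not need calcium for binding. It was bright from the start, with 10233, 8695 and 9697 at 0 h and 11008, 10281 and 7992 at 1 h. It read 17763, 19324 and 18689.6 at 4 h and 32315, 29132 and 25345 at 8 h. From 8 h to 48 h its arrays ran from 24237 to 34694, and neighbouring times overlapped throughout that stretch. S100A10 differed from 0 h by 0.96 ± 0.14 at 4 h, where it passed the p threshold but stayed just short of 2-fold, and 1.59 ± 0.14 at 8 h (adjusted p = 5.55e-11). At 48 h it was still 1.59 ± 0.14. ANXA2, its partner, had a mean signal of 32040.3 at 0 h and 48467 at 8 h, a change of 0.59 ± 0.14 (adjusted p = 0.00132). From 4 h on ANXA2 passed the p threshold at each time but stayed short of 2-fold, so it was not called at any time. Its probe set is of a kind that may cross-hybridize.

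S100A6, or calcyclin, is a cell-cycle linked relative that binds annexins and the calcyclin-binding protein. It lay near the detection filter here, above the 40th percentile on 15 of 24 arrays. Its signals were 31.7, 10.1 and 28.0 at 0 h and 148, 118 and 117 at 8 h, which did not overlap. At 4 h they were 85.0, 13.0 and 127 and at 12 h 102, 17.3 and 82.6, in both cases with 1 array within the 0 h range. All 3 arrays of 12 h lay below all 3 of 8 h. The change was 1.86 ± 0.52 at 8 h (adjusted p = 0.00467) and 1.43 ± 0.52 at 24 h (adjusted p = 0.0274), and it was called at these times only. The 24 h call was lost with a larger pseudocount, without 0 h replicate 2 and without 24 h replicate 1.

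S100A13 takes part in the release of FGF1 and interleukin-1 alpha by a route that bypasses the secretory pathway. Its mean was higher at each time from 4 h on than at the time before, and was highest at 48 h. Of its steps between neighbouring times only that from 1 h to 4 h passed the p threshold (0.90 ± 0.15, adjusted p = 2.01e-05), short of 2-fold. Signals were 792, 707 and 573 at 0 h, 744, 559 and 594 at 1 h and 1134, 1112 and 1328 at 4 h. They were 1831, 1419 and 1575 at 8 h and 1978, 1409 and 1691 at 12 h, then 2179, 2243 and 2621 at 16 h. At 48 h they read 2787, 2472 and 2505, overlapping the 2472, 2555 and 2312 of 24 h. S100A13 differed from 0 h by 0.78 ± 0.15 at 4 h, short of 2-fold, 1.20 ± 0.15 at 8 h and 1.89 ± 0.15 at 48 h (adjusted p = 2.74e-12). Between 4 h and 48 h it gained 1.11 ± 0.15 (adjusted p = 3.37e-07). A second probe set of S100A13 read 10.1 to 170, above the filter level on 13 of 24 arrays, and gave no call. When the probe sets were averaged, S100A13 lost its calls at 8, 12, 16 and 24 h and between 4 h and 48 h.

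S100A8 and S100A9 form calprotectin, a dimer that binds zinc and calcium and, when released, signals through TLR4 and AGER. On these arrays they parted. S100A8 read 714, 769.5 and 979 at 0 h and 467, 398 and 622 at 1 h, each array at 1 h below each at 0 h. At 4 h it read 1256, 1175 and 1777, above both, and at 8 h 1218, 1095 and 1070.4. After 1009, 700.2 and 1183 at 12 h and 786, 1122 and 1327 at 16 h it read 538, 499 and 833 at 24 h, where the groups overlapped. At 48 h, with 244, 198 and 225, all arrays lay below all earlier ones. The change from 1 h to 4 h was 1.47 ± 0.22 (adjusted p = 3.34e-06), and at 4 h the level stood 0.75 ± 0.22 above 0 h, short of 2-fold. The change from 0 h to 48 h was -1.79 ± 0.22 (adjusted p = 3.32e-08) and from 24 h to 48 h -1.38 ± 0.22 (adjusted p = 5.78e-05). A dim second probe set of S100A8 read 3.84 to 96.4, lay above the filter level on 4 of 24 arrays and gave no call. Averaging both probe sets ended the call at 48 h and that between 24 h and 48 h.

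S100A9 read 349, 216 and 355 at 0 h and 404, 309 and 379.5 at 1 h, with overlapping arrays. At 4 h it read 808, 1128 and 1621, at 8 h 1166, 1709 and 1170.5 and at 12 h 1214, 1412 and 1476. Those arrays all lay above the earlier ones. It then read 1539.8, 1267 and 1533 at 16 h, 1136, 1145 and 1195 at 24 h and 780.4, 991 and 779 at 48 h. S100A9 differed from 0 h by 1.87 ± 0.20 at 4 h, 2.20 ± 0.20 at 16 h and 1.44 ± 0.20 at 48 h (adjusted p = 5.42e-07), so it was still called higher when S100A8 was called lower.

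The log2 difference S100A9 minus S100A8 on the same array followed this parting. Brightness depends on the probes, so the level of this difference has no meaning, and only its change between times does. Its mean was -1.39 ± 0.38 on the 0 h arrays, -0.41 ± 0.25 after 1 h and 0.23 ± 0.36 after 8 h (SD, n = 3). Later it measured 0.91 ± 0.35 at 24 h and 1.85 ± 0.33 at 48 h, a shift of 3.24 log2 units from 0 h. At each later time all 3 arrays lay above all 3 of 0 h, and the exact permutation test gave p = 0.1, two-sided, the smallest it can give with 3 arrays against 3. This difference was chosen after its values were seen.

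**Figure D2:**
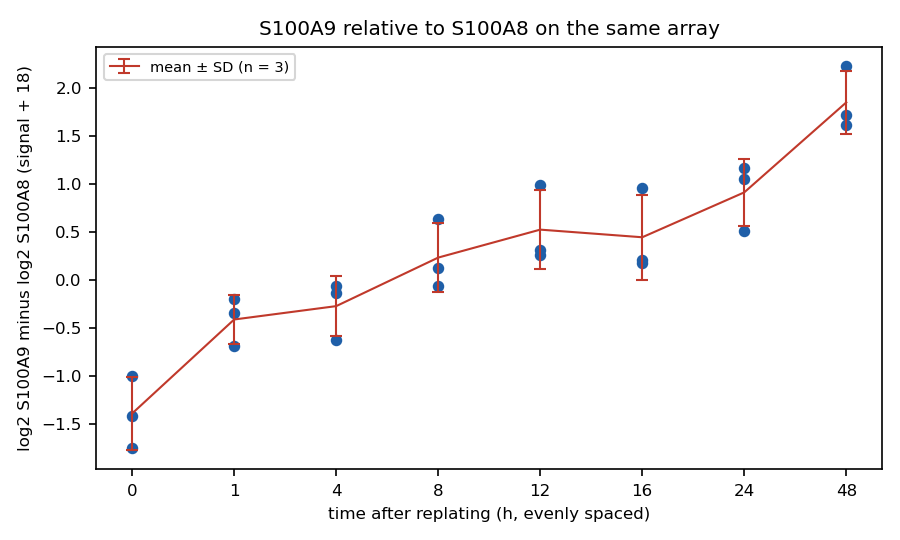
The log2(signal + 18) of S100A9 minus that of S100A8 on the same array, by time in h; points are arrays and the line joins means ± SD (n = 3). The mean moves from -1.39 at 0 h to 1.85 at 48 h, and no later array lies as low as the highest 0 h array.

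Myeloid marker genes were read beside this pair, since both genes are abundant in neutrophils and monocytes. Of 9 such genes on the array 5 were tested. PTPRC, LYZ, CSF1R and CSF3R did not pass the filter. The summed signal of the 9 genes was 727 to 964 at 0 h, 900 to 1129 at 1 h and 756 to 987 at 4 h. It was 563 to 1166 at 8 h and 469 to 768 at 12 h, both overlapping 0 h. After that it was 326 to 609 at 16 h, 325 to 579 at 24 h and 316 to 479 at 48 h. S100A8 read 786 to 1327 at 16 h and was called lower from 24 h to 48 h. The sum lay below its 0 h range from 16 h on, and its 24 h and 48 h arrays overlapped. It also holds the genes that did not pass, and the filter level of an array was 58.1 to 91.3 per probe set. Of the 5 tested genes, 0 were called at 16 h and 0 at 24 h, and 1 was called lower at 48 h (all genes 11.9%, 11.2% and 11.7% lower). The part of myeloid markers in the S100A8 and S100A9 results was not tested.

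S100A14 is an epithelial member whose calcium-binding loops are incomplete. Its signals were 162, 102 and 136 at 0 h and 219, 188 and 139 at 1 h. They reached 775, 686 and 614 at 4 h and 800.1, 985 and 1018 at 8 h, above all earlier arrays. The level held at 688, 822 and 964 at 12 h and 687, 967 and 1128 at 16 h. It then read 573, 568 and 316 at 24 h and 176, 219 and 214 at 48 h, so that the last arrays lay below all those of 4 h to 24 h but still above the 0 h arrays. Against 0 h the difference was 2.66 ± 0.23 at 8 h (adjusted p = 3.53e-11), 1.70 ± 0.23 at 24 h and 0.56 ± 0.23 at 48 h (adjusted p = 0.0521), the last not called. The step from 16 h to 24 h, -0.93 ± 0.23, passed the p threshold (adjusted p = 0.0137) but not 2-fold. The step from 24 h to 48 h was -1.15 ± 0.23 (adjusted p = 0.00152), called, though not with a larger pseudocount.

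S100P, first found in placenta and known as a ligand of AGER and ezrin, read between 4.25 and 70.3 over the 24 arrays. It lay above an array's 40th percentile on 2 of them, so no level was measured for it at any time. It is also the only one of the 10 whose gene lies on chromosome 4.

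**Figure D3:**
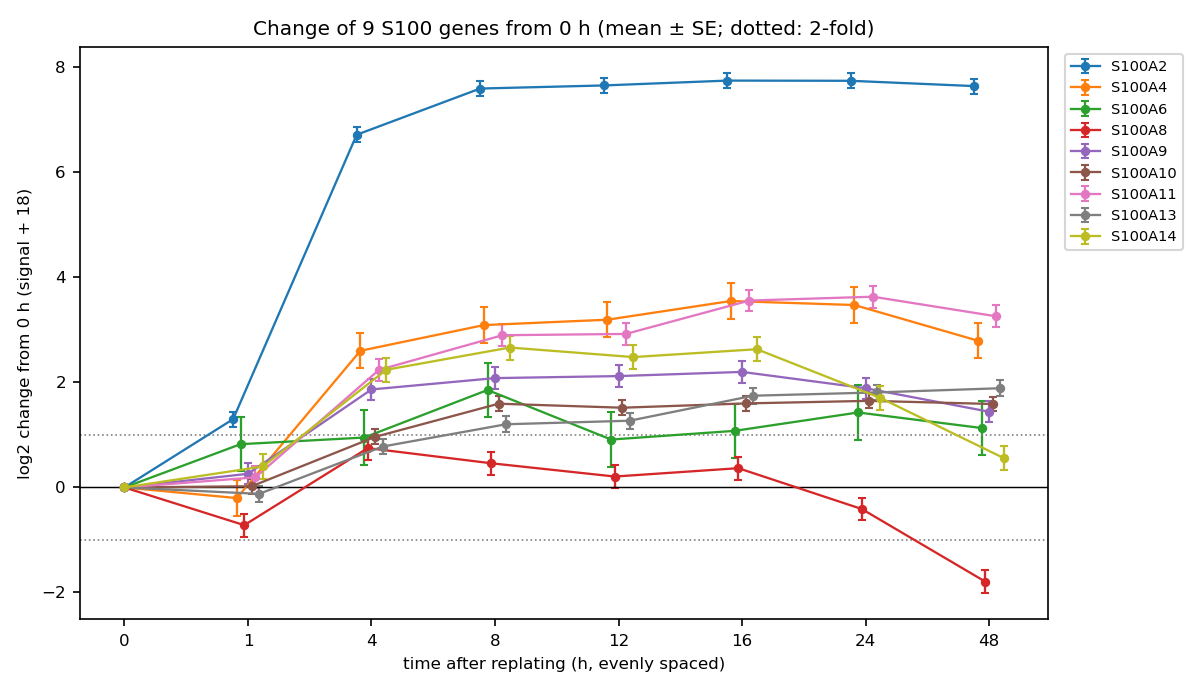
Change of the 9 tested S100 genes from 0 h in log2(signal + 18), by time in h; points are differences of means of 3 arrays with their SE, and dotted lines mark 2-fold. S100A2 stands above the rest from 4 h on, S100A8 ends at -1.79, and S100A14 returns to 0.56.

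Between neighbouring times the calls fell in 3 intervals. From 0 h to 1 h S100A2 alone was called, as given above. From 1 h to 4 h, 6 of the 9 genes were called higher (S100A2, S100A4, S100A8, S100A9, S100A11 and S100A14), against 6.48% of all genes. From 24 h to 48 h, 2 were called lower (S100A8 and S100A14), against 0.873%. No S100 gene was called from 4 h to 8 h (all genes 3.22% in either direction), from 8 h to 12 h (0.482%), from 12 h to 16 h (0.241%) or from 16 h to 24 h (1.31%). In these 4 limma comparisons, 4, 0, 2 and 2 S100 genes had an unadjusted p under 0.05. An adjusted p under 0.05 was reached by 3, 0, 0 and 2, all short of 2-fold. From 4 h to 8 h these were S100A2, S100A10 (0.63 ± 0.14, adjusted p = 0.00268) and S100A11 (0.66 ± 0.21, adjusted p = 0.0353). From 16 h to 24 h they were S100A8 (-0.78 ± 0.22, adjusted p = 0.0364) and S100A14. Set against 4 h, the 48 h arrays were called higher for S100A11 and S100A13 (all genes 8.47%) and lower for S100A8 and S100A14 (all genes 8.97%). For S100A4 that difference was 0.19 ± 0.34 and for S100A9 -0.42 ± 0.20, with overlapping arrays.

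The order of each gene's own mean levels over time can in part be read from these steps. S100A2 was lowest at 0 h, then 1 h, then 4 h, and no step between neighbours among its 5 later times passed the p threshold. S100A10 was lowest at 0 h and 1 h, which overlapped, then at 4 h, and its later neighbours overlapped. S100A11 and S100A13 were highest at 24 h and 48 h, respectively, and in both genes the last 3 times overlapped one another. The means of S100A4 and S100A9 were highest at 16 h, those of S100A14 and S100A6 at 8 h, and that of S100A8 at 4 h. None of these 5 highest means differed from the next time at the p threshold. Only that of S100A8 differed so from the time before it, and S100A6 did not pass the F-test.

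For each gene that passed the F-test, the genes with the most similar time course were listed by the root mean square difference (RMS, in log2 units) between centred profiles of 8 mean values. This is a description with no test. The profile of S100A4 was nearest to that of S100A11 (RMS 0.28), and the profile of S100A11 to that of S100A4, followed by EMP3 (0.31). After S100A11, S100A4 was nearest to TYMP (0.30) and MGAM (0.36), and S100A11 was next nearest to ACTL8 (0.35). S100A10 lay close to EIF3D (0.092), RAN (0.10) and DDX39A (0.11), and among the S100 genes to S100A13 (0.22). S100A9 lay close to FADD, SQOR and PAK1IP1 (0.12 each). S100A13 lay close to CAVIN1 (0.11), FBL (0.12) and PDCD5 (0.13), and S100A14 to STEAP1 (0.16), COL6A3 (0.27) and LAMB3 (0.28). S100A8 had LYVE1 (0.29), DAPK2 (0.31) and THSD7A (0.33) as its nearest. The nearest to S100A2 were RAC2 (1.22), GLIPR1 (1.26) and PLEK2 (1.32), each with a smaller range over time.

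A list of 11 further genes, namely other S100 genes and S100PBP, had 8 on the array and 4 that passed the filter. S100A3, a cysteine-rich member known from the hair cuticle, was called higher than 0 h at all 7 later times. It read 54.8, 17.3 and 110.5 at 0 h, 167, 175 and 121 at 1 h and 978, 1071 and 931 at 4 h. At 16 h it read 1250.0, 1665 and 1618 and at 48 h 504, 463 and 554, still above each 0 h and 1 h array. Its change was 1.30 ± 0.26 at 1 h, 4.46 ± 0.26 at 16 h (adjusted p = 2.53e-15) and 2.92 ± 0.26 at 48 h. S100PBP, which encodes an S100P-binding protein, was called against 0 h at 24 h only (1.12 ± 0.45, adjusted p = 0.0461). S100A1 and S100A12 had no call (F-test adjusted p = 0.584 and 0.267). S100A5, S100A7, S100B and S100G did not pass the filter.

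Of the 10 S100 genes described here, all but S100P lie in 1 stretch of chromosome 1, which in the RefSeq order from S100A10 to S100A1 holds 63 protein-coding genes. S100A10 and S100A11 stand at 1 end, and S100A9 to S100A1 at the other, with genes of the cornified layer between. All 9 S100 genes described here were tested, and 8 of them were called higher at some time, against 17.7% of all genes. The 1 called lower at some time was S100A8, against 24% of all genes. Of the 47 genes that are not S100 genes, 14 were on the array and 8 were tested, and 4 of these were called lower at some time (KPLCE, IVL, SPRR1B and PGLYRP4). In limma 0 of the 8 were called higher at any time, and 1 had an unadjusted p under 0.05 in that direction. Their SE at 16 h ran from 0.36 (SPRR1A) to 0.70 (SPRR1B), against 0.14 (S100A10) to 0.52 (S100A6) for the 9 S100 genes. A rise was thus harder to call in most of the 8. In the F-test 0 of the 8 passed (all genes 58.9%), and 0 had an unadjusted p under 0.05. At the S100A1 end, S100A4, S100A3, S100A2, S100A14 and S100A13 were all called higher at 16 h, and S100A1 itself, next to S100A13, changed by 0.12 ± 0.62 (adjusted p = 0.903). S100A16, between S100A2 and S100A14, was not analysed here. S100A12, between S100A9 and S100A8, changed by -0.84 ± 0.56, which was not called (adjusted p = 0.246).

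**Figure D4:**
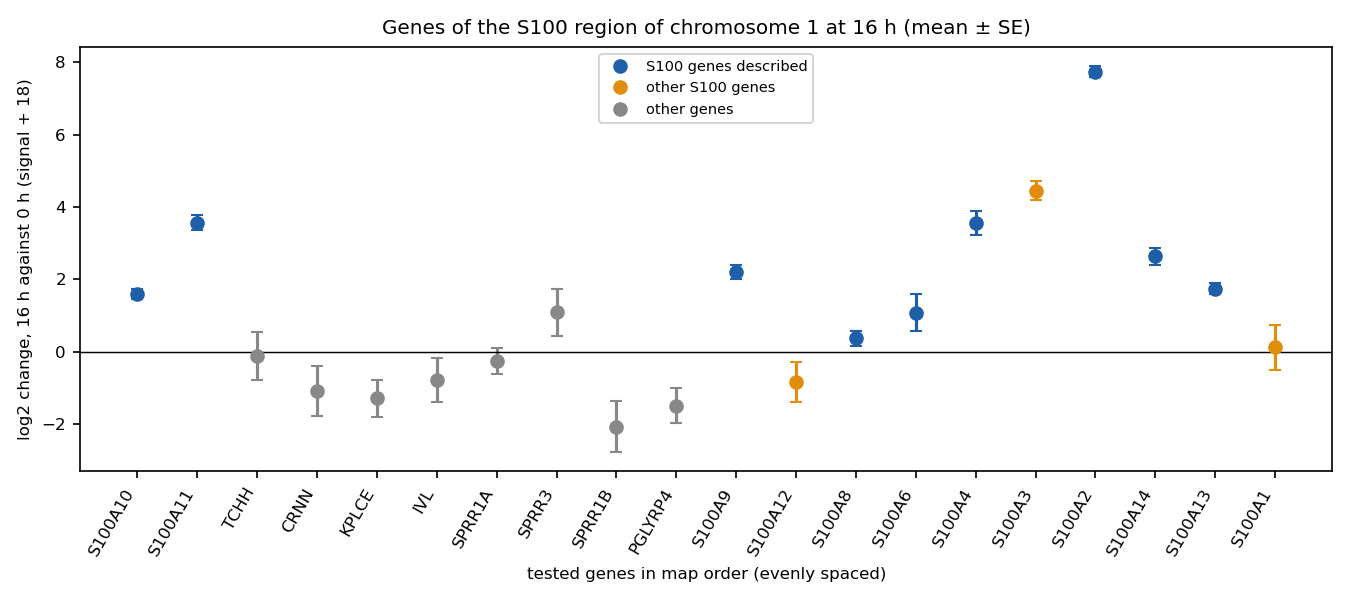
Change from 0 h to 16 h in log2(signal + 18), with SE, of the tested genes of the S100 stretch of chromosome 1, in map order and evenly spaced. The S100 genes described here run from 0.37 (S100A8) to 7.75 (S100A2), and the 8 genes outside the family run from -2.07 to 1.09 with no call for a rise.

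Among binding partners and receptors of S100 proteins, 32 were listed, 29 were on the array and 25 were tested. At 1 h 2 were called higher (all genes 2.22%). At 8 h 7 were higher and 1 lower (all genes 8.41% and 10.1%), and at 16 h 7 and 2 (9.19% and 11.9%). At 48 h 4 were higher and 1 lower (9.82% and 11.7%). The median change of the 25 was 0.29 at 8 h and 0.31 at 48 h, against -0.15 and -0.12 for all genes. ANXA1, the annexin partner of S100A11, rose from a mean signal of 730.3 at 0 h to 6674 at 24 h, a change of 3.22 ± 0.18 (adjusted p = 6.27e-16). TPM1, a tropomyosin of the actin filament, rose by 2.22 ± 0.17 at 24 h. TLR4, a receptor for calprotectin, had its highest mean at 1 h, 411 against 82.0 at 0 h (2.33 ± 0.38). Its arrays at 1 h and 4 h overlapped, and it was still called higher at 24 h. CYBA, a subunit of the NADPH oxidase that calprotectin is known to potentiate, changed by -2.44 ± 0.57 at 16 h, from a mean of 128 to one below the filter level. AGER stayed between 3.76 and 114 and was not called.

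Of 51 other EF-hand proteins listed, 46 were on the array and 40 were tested. At 8 h 4 of the 40 were called higher and 6 lower, near the shares of all genes (8.41% and 10.1%). At 48 h 6 were higher and 8 lower (all genes 9.82% and 11.7%). The median change of the 40 was -0.05 at 8 h and 0.08 at 48 h. ACTN1, which cross-links actin, rose by 2.82 ± 0.17 at 12 h. SPARCL1, a matrix glycoprotein, changed by -3.34 ± 0.40 at 16 h, CALML4, a calmodulin relative of the microvillus, by -2.84 ± 0.33 at 48 h, and the neuronal sensor VSNL1 by -2.25 ± 0.24 at 12 h.

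Markers of other cell types that express S100 genes were also read. Of 9 cholangiocyte markers on the array, 7 were tested and 4 were called higher at 4 h (all genes 7.6%). Their summed signal was 10557 to 13216 at 0 h, 23745 to 30707 at 4 h and 22064 to 27919 at 48 h. KRT19, a keratin of bile ducts, had a mean of 3357 at 0 h and 17545 at 4 h, while EPCAM and CFTR did not pass the filter. The sum, of which KRT19 was a large part at 4 h, rose in the same interval as S100A2, S100A4, S100A8, S100A9, S100A11 and S100A14. In that interval, from 1 h to 4 h, 2 of the 7 tested cholangiocyte markers were called higher (all genes 6.48%) and 1 lower. Of 6 squamous keratinocyte markers on the array, 5 were tested, and limma called 0 higher than 0 h at any later time (0 at an unadjusted p under 0.05). Of all genes, 17.7% were called higher at some time. Among the squamous markers 1 was called lower at each of 12, 16 and 24 h (all genes 10.6%, 11.9% and 11.2%). Their summed signal was 371 to 551 at 0 h and 201 to 303 at 48 h. Of 8 fibroblast or stellate cell markers, 8 were tested and 3 were called higher at 48 h (DCN, LUM and ACTA2; all genes 9.82%), with a summed signal of 1811 to 2337 at 0 h and 3819 to 5054 at 48 h. The part of these cell types in the S100 values was not tested.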

How the data were processed

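Total RNA from 24 HepaRG samples was measured on a 1-colour Affymetrix array. The deposited values are intensities made by the authors with MAS5, per the submitters' processing notes, which name neither version nor scaling target. The mean intensity of each deposited array without its outer 2% lay between 500.2 and 500.3, so the arrays had been scaled to 1 level. A constant of 18, the 20th percentile of all signals, was added before log2, so changes of dim genes are understated. Probe sets above their array's 40th percentile on at least 3 of 24 arrays were tested, and a gene with several was represented by the brightest on average. Gene symbols are those of the platform annotation, which can be old: of 22215 probe sets, 19065 had 1 symbol, 1043 several and 2107 none, and none was named from several. Names ending in _x_at mark possible cross-hybridization, among the list genes given by name those of ANXA2 and DCN, and some unnamed list members have them too.

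Group means of the 8 times were compared in limma 3.58.1 under R 4.3.3 (lmFit, eBayes with a trend, 16 residual degrees of freedom, two-sided) without a replicate block. The fit itself was tested on simulated data with known changes. Each of the 7 later times was set against 0 h, beside 6 steps between neighbouring times from 1 h on, and 48 h with 4 h. Arrays with the same replicate number did not deviate together (correlation of deviations -0.067 to 0.065 over 84 pairs). No arrays were identical, and the number of arrays limits the precision. Alternatives were no or a larger pseudocount (73.8), quantile normalization, median centring, no filter or one of 12 arrays, the mean of or every probe set, a fit on only the groups compared, the replicate block, and leaving out each array.

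The genes, lists, rules and alternatives were chosen with earlier results of these data known. All 10 S100 genes, every gene of the other S100 list, up to 4 called genes with the largest change of the partner and EF-hand lists, the 3 most similar profiles per gene passing the F-test, and up to 3 markers per list were named, with values given for those that fit the text. ANXA2 and AGER were named after their values were seen, as partner and receptor, and so were the genes of the chromosome 1 stretch. Promoter windows and map order came from RefSeq (GRCh38.p14). Protein sequences were not used here. Figures used matplotlib 3.10.9 in Python 3.11.15.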

Additional observations from a re-analysis of the deposited data

How the results depend on the processing

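Each S100 call was recomputed under 34 alternatives. Of 55 called differences of single S100 genes, 55 kept their direction under every one and 45 also kept their call. The other 10 are the differences of S100A6, S100A8, S100A11, S100A13 and S100A14 whose losses stand beside their values above; the cause was not tested. The count of S100 genes called between 24 h and 48 h was 1 with a larger pseudocount and 1 with the mean of probe sets, against 2. Between 16 h and 24 h the count ranged from 0 to 1 when single arrays were left out (1 without 16 h replicate 1 and without each of the 24 h replicates), against 0. The replicate block gave 1, 5, 8, 7, 7, 8 and 7 called genes at the 7 later times and changed no count. Quantile normalization and median centring gave 7 higher and 1 lower at 48 h, while the share of rises among all called genes at 48 h moved from 45.6% to 53% and 65.9%. Signals near the filter level limit S100A6 and S100P, and 3 arrays per time limit every error.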
